A study of Mus musculus with 12 samples.

Results

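Lhpp, Slc13a3, Gulo, Lect2 and Rgn are 5 mouse liver genes picked, with earlier results of these libraries known, selected on their PC and PP values: their RNA was far higher in pericentral (PC) than in periportal (PP) hepatocytes. They are 5 of the 28030 gene identifiers in the deposited table of estimated counts, and all 5 were among the 12086 genes with enough counts to test. In the lobule, the repeating unit of the liver, PC cells lie around the central vein and PP cells around the portal tract, where blood enters. RNA was compared in 4 groups of 3 libraries each: PC from fasted mice, PC from fed mice, PP from fasted mice and PP from fed mice. Every mouse was a wild-type (WT) female, 12 weeks old, on normal chow, so the groups differ by zone and feeding state alone as far as the labels say. For 3 days all mice had food for 8 h by day and none for 16 h overnight. Fed mice were killed at 13:00 after 4 h with food and 20% sucrose water, and fasted mice 24 h after both were taken away. The sample titles name digitonin, a detergent that can be infused into the liver to destroy the hepatocytes of one zone and leave those of the other. Replicates are called biological, and it is not stated whether the same mouse gave the PC and PP libraries that carry the same number.

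As background, the zones of the lobule do different metabolic work. Endothelial cells of the central vein secrete Wnt proteins and R-spondin, which keep beta-catenin active in the nearest hepatocytes, and beta-catenin with its TCF/LEF partners drives genes such as Glul and Axin2 there. Gulo, L-gulonolactone oxidase, carries out the last step of vitamin C (ascorbate) synthesis in the mouse, a step that humans lack. Rgn, regucalcin or SMP30, is a calcium-binding protein and the gluconolactonase of the step before it. Lhpp is a phosphatase of the haloacid dehalogenase family that acts on phosphohistidine, phospholysine and pyrophosphate bonds. Slc13a3, also called NaDC3, is a sodium-coupled transporter that brings dicarboxylates such as succinate and alpha-ketoglutarate into cells. Lect2, leukocyte cell-derived chemotaxin 2, is a protein that hepatocytes secrete into the blood.

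The libraries held 16245846 to 27449412 estimated counts. Markers of the labelled cells went with the labels: a list of 13 pericentral markers summed to 12800 to 23070 CPM (a gene's share of its library's counts, with library sizes scaled by TMM) in fasted PC and 14200 to 15220 CPM in fed PC, against 236 to 979 CPM in fasted PP and 690 to 1508 CPM in fed PP. The 12 periportal markers summed to 10330 to 14340 CPM in fasted PC and 6363 to 7925 CPM in fed PC, against 20040 to 26210 CPM in fasted PP and 12420 to 16790 CPM in fed PP. Not each of the 12 differed by zone. At an edgeR adjusted p under 0.05, 7 were lower and 0 higher in PC in each feeding state, where 3.05% (fasted) and 2.47% (fed) of all genes were lower. Cps1, a large part of the sum, averaged 3575 CPM in fasted PC and 4230 CPM in fasted PP, and 3980 and 4192 CPM in fed PC and PP. Alb, albumin, is made by hepatocytes of both zones, and its level in PC was 0.575 times that in PP of fasted mice and 0.585 times that in PP of fed mice. Markers of other liver cells were low. The lists of endothelial, Kupffer, stellate and lymphoid markers each summed to at most 14.9 CPM in any library, with 3, 3, 3 and 4 of their genes under 1 CPM throughout. Cholangiocyte markers summed to 13.6 to 47.4 CPM and erythroid markers to 5.10 to 441 CPM. Fasted PC replicate 1 stood apart: Glul, glutamine synthetase and the standard marker of the cells at the central vein, was at 172 CPM there and at 3639 and 2353 CPM in fasted PC replicates 2 and 3. For the 5 genes, the fasting and zone differences, levels in fasted PC, correlations and nearest genes are given with and without that library.

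All 5 genes were higher in every PC library than in every PP library of the same feeding state. This is how they were chosen, so the zone values are a description and no test is read from them. Groups of 3 and 3 libraries failed to overlap for 22% of all tested genes in fasted mice, with PC higher for 11.4%, and for 26% in fed mice, with PC higher for 12.9%. A gene was called where its edgeR adjusted p was under 0.05. Between the zones of fasted mice edgeR called 6.4% of genes, 3.35% higher and 3.05% lower in PC. Between those of fed mice it called 4.72%, 2.24% higher and 2.47% lower in PC. The median log2 fold change of the 5 genes was 4.86 in fasted and 4.43 in fed mice, against -0.0014 and -0.014 over all 12086 genes. In fasted mice the fitted log2 difference of PC over PP was 6.87 for Lhpp, 7.62 for Slc13a3, 4.86 for Gulo, 4.02 for Lect2 and 2.54 for Rgn. Without fasted PC replicate 1 it was 7.34 for Lhpp, 8.13 for Slc13a3, 5.15 for Gulo, 4.22 for Lect2 and 2.67 for Rgn. In bulk RNA, fewer cells that express a gene and less RNA per cell cannot be told apart.

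The ascorbate pair differed in how sharply it was zoned. Gulo (ENSMUSG00000034450, GRCm38 chromosome 14 from 65986786 to 66009207, minus strand) stood at 345, 815 and 688 CPM in fasted PC libraries, against 703, 789 and 818 CPM in fed PC libraries. In PP it stood at 26.3, 30.4 and 6.79 CPM in fasted libraries, against 41.2, 27.1 and 39.0 CPM in fed libraries. Mean Gulo in PC was 29.1 times that in PP of fasted mice (35.5 without fasted PC replicate 1) and 21.5 times that in PP of fed mice. Rgn (ENSMUSG00000023070, chromosome X from 20549787 to 20562089, plus strand) stood at 944, 1345 and 1272 CPM in fasted PC libraries, against 1764, 1797 and 1634 CPM in fed PC libraries. In PP it stood at 225, 219 and 169 CPM in fasted libraries, against 537, 450 and 249 CPM in fed libraries. Rgn was thus the most evenly spread of the 5 genes, with PC at 5.81 times PP in fasted mice (6.40 without that library) and 4.20 times PP in fed mice. Per kb of exon, the ratio of Gulo to Rgn was 0.358 ± 0.088 in fasted PC and 0.317 ± 0.037 in fed PC, against 0.070 ± 0.037 in fasted PP and 0.070 ± 0.037 in fed PP (SD, n = 3 each). The lowest ratio of a PC library was 0.26 and the highest of a PP library 0.111, so the zones did not overlap. Without fasted PC replicate 1 the mean ratio in fasted PC was 0.407 over 2 libraries.

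Lhpp (ENSMUSG00000030946, chromosome 7 from 132610638 to 132706420, plus strand) stood at 32.3, 198 and 186 CPM in fasted PC libraries, against 104, 89.4 and 93.8 CPM in fed PC libraries. Its level was near 0 in PP, at 1.605, 1.27 and 0.684 CPM in fasted libraries and 2.26, 1.03 and 2.03 CPM in fed libraries. The PC mean was 117 times the PP mean in fasted mice (162 without fasted PC replicate 1) and 54.0 times in fed mice. Slc13a3 (ENSMUSG00000018459, chromosome 2 from 165405028 to 165473230, minus strand) stood at 2.94, 30.9 and 24.3 CPM in fasted PC libraries, against 22.1, 31.5 and 28.0 CPM in fed PC libraries. Its PP values rest on almost no reads: 2, 4 and 0 counts in fasted PP libraries and 2, 4 and 6 counts in fed PP libraries. The library with 0 counts allows up to 0.137 CPM, taken as 3 counts. Pooled over libraries, Slc13a3 was 201 times higher in fasted PC than in fasted PP (exact 95% interval 92.1 to 550 on the counts) and 145 times higher in fed PC than in fed PP (82.7 to 281). Without fasted PC replicate 1 the fasted value was 296 (136 to 809). These intervals and the limit cover counting error only, not the spread between mice.

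Lect2 (ENSMUSG00000021539, chromosome 13 from 56542464 to 56548502, minus strand) was the secreted protein of the set. It stood at 97.3, 167 and 154 CPM in fasted PC libraries, against 214.0, 211.7 and 211.9 CPM in fed PC libraries, where the 3 values were almost equal. In PP it stood at 8.38, 15.0 and 2.42 CPM in fasted libraries, against 28.7, 16.0 and 21.0 CPM in fed libraries. The PC mean was 16.3 times the PP mean in fasted mice (18.7 without fasted PC replicate 1) and 9.72 times in fed mice.

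**Figure D1:**
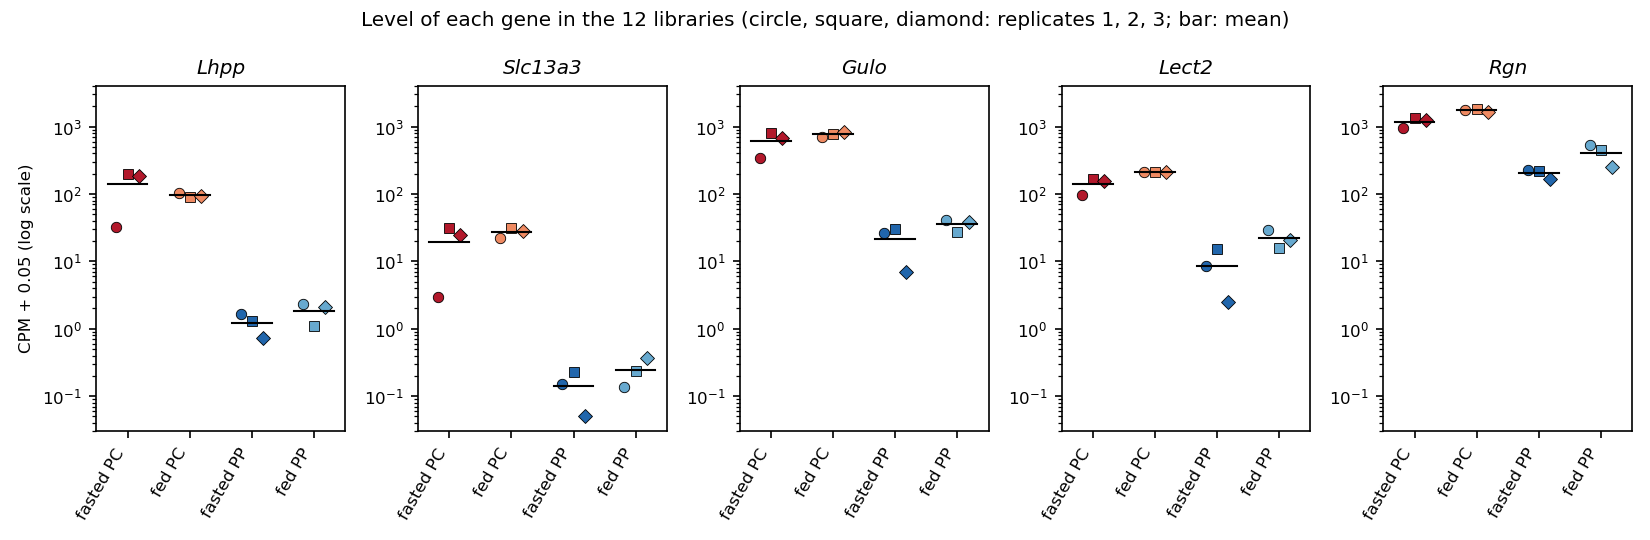
Level of each of the 5 genes in the 12 libraries, as CPM plus 0.05 on a log axis; each symbol is a library (circle, square and diamond for replicates 1, 2 and 3) and each bar a group mean. All PC libraries lie above all PP libraries, the group means are closest between the zones for Rgn and farthest apart for Slc13a3, and the circle of fasted PC replicate 1 lies lowest of the PC libraries in all 5 panels.

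Promoter sequence, 250 bases before to 50 after the RefSeq start on GRCm38.p6, was matched by symbol for 2 of the 5 genes, Lect2 and Slc13a3. Both are shown because no others were matched. They differ in base composition and in the motifs they hold, and both genes were higher in PC. Capitals mark the motifs found among TCF/LEF (CTTTGAT), FOX (TGTTTAC), the TATA box (TATAAA), the GC box (GGGCGG) and the CCAAT box (CCAAT), each searched on both strands. In Lect2 (chr13:56548489-56548788, minus strand) the capitals mark a TCF/LEF match on the opposite strand, read here as its reverse complement and starting 32 bases before the start. In Slc13a3 (chr2:165473148-165473447, minus strand) they mark GC boxes starting 129 and 65 bases before the start. No match overlaps another.
Lect2: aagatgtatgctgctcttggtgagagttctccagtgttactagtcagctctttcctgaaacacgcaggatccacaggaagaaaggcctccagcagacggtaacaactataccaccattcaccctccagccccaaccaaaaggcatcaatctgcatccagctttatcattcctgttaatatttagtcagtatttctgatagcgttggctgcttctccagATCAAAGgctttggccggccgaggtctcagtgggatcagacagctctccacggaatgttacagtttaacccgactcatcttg
Slc13a3: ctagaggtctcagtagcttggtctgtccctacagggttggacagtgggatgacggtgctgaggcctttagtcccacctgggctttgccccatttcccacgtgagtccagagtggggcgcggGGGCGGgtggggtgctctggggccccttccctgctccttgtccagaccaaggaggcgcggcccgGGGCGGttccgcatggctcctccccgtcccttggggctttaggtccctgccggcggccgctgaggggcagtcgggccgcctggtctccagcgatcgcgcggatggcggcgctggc
G and C make up 48.0% of the Lect2 window and 69.3% of the Slc13a3 window. The search covered 32851 promoter windows of that length, leaving out a chromosome that carries none of the chosen genes. Of these windows, 3.73% hold the TCF/LEF letters, 3.65% the FOX letters, 13.6% the TATA box, 35.7% the GC box and 37.4% the CCAAT box. A match describes the letters of a window and is not evidence of binding.

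Levels of different genes can be compared only per length, so CPM was divided by the kb of exon in GENCODE M21. In fed PC the order was Rgn at 1078 ± 53.8 CPM per kb, Gulo at 340.1 ± 26.5, Lect2 at 231 ± 1.39, Lhpp at 39.6 ± 3.11 and Slc13a3 at 5.22 ± 0.910 (SD, n = 3), with no overlap between neighbours in that order. In fasted PC the order was the same, at 739 ± 133, 272 ± 107, 152 ± 40.5, 57.5 ± 38.3 and 3.72 ± 2.81 CPM per kb. Every pair of neighbours in that order was apart in fasted PC but 1: the libraries of Gulo (153 to 360.0) overlapped those of Lect2 (106 to 182), although within each of the 3 libraries Gulo was above Lect2. Without fasted PC replicate 1 the means in fasted PC were 814 CPM per kb for Rgn, 332 for Gulo, 175 for Lect2, 79.6 for Lhpp and 5.30 for Slc13a3, with no overlap between neighbours. In PP, Rgn came first at 127 ± 19.1 CPM per kb in fasted and 256 ± 92.0 in fed libraries. In fasted PP, Gulo and Lect2 stood at 9.36 ± 5.58 and 9.35 ± 6.84 CPM per kb, with Gulo above Lect2 in 2 of 3 libraries. In fed PP, Gulo stood at 15.8 ± 3.34 and Lect2 at 23.8 ± 6.98 CPM per kb; their ranges overlapped, but Lect2 was above Gulo within each of the 3 libraries. Lhpp and Slc13a3 were both under 1 CPM per kb on average in PP. Within the set, the gene with the highest level had the lowest PC to PP ratio and the gene with the lowest level the highest ratio. The genes between did not all follow that order: in fed mice Gulo was above Lect2 in PC level and also in ratio (21.5 and 9.72).

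Fasting was tested within each zone, a contrast that did not serve to choose the genes. Rgn was lower in fasted PP than in fed PP, by -1.01 ± 0.24 on the log2 scale (SE; edgeR adjusted p = 0.0122). That is 1 of the 5 genes, where 17.9% of all genes were called, 8.39% higher and 9.5% lower. Every fasted PP library of Rgn was below the lowest fed PP library. The call held in each of the 12 fits that left out a library (edgeR adjusted p between 0.00137 and 0.0479). In PC the difference of Rgn was -0.54 ± 0.24 on the log2 scale (edgeR adjusted p = 0.123). Leaving out fed PP replicate 3 gave a call there (-0.56, edgeR adjusted p = 0.0233), as did a fit of the 6 PC libraries alone (-0.565, edgeR adjusted p = 0.0262). Averaged over both zones, Rgn was lower by -0.78 ± 0.17 in fasted mice (edgeR adjusted p = 0.00344).

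Lect2 differed by -0.61 ± 0.46 on the log2 scale in PC (edgeR adjusted p = 0.388) and -1.35 ± 0.495 in PP (edgeR adjusted p = 0.0904). Every fasted library was below every fed library of its zone, in PC and in PP, as for Rgn. That makes 2 of the 5 genes with fasted lower and no overlap in each zone, where 20.2% of all genes were so in PC (41.7% in either direction) and 17.8% in PP (34.6%). Averaged over both zones Lect2 was called lower, at -0.98 ± 0.34 (edgeR adjusted p = 0.0472). That call was at the edge: it ended in 10 of the 12 fits that left out 1 library, with the highest adjusted p at 0.101 without fed PP replicate 1, and it held only without fasted PP replicate 2 or 3. Without fasted PP replicate 2 the value of Lect2 in PP alone was called, at -2.03 ± 0.46 (edgeR adjusted p = 0.0204), and in a fit of the 6 PC libraries the PC value of -0.63 was called (edgeR adjusted p = 0.049).

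Lhpp, Gulo and Slc13a3 were not called. Lhpp differed by 0.54 ± 0.53 on the log2 scale in PC (edgeR adjusted p = 0.515) and -0.59 ± 0.82 in PP (edgeR adjusted p = 0.678). The PC value rests on 1 library: without fasted PC replicate 1, Lhpp rose by 0.99 ± 0.21 (edgeR adjusted p = 0.00841), with the remaining fasted PC libraries at 2.01 times the fed PC mean. Gulo had -0.32 ± 0.46 in PC and -0.76 ± 0.47 in PP (edgeR adjusted p = 0.663 and 0.309). Slc13a3 had -0.49 ± 0.61 in PC and -0.98 ± 1.93 in PP (edgeR adjusted p = 0.609 and 0.769). The 95% interval of Slc13a3 in PP ran from -5.29 to 3.33, so a change of several-fold in either direction was not detectable at 12 or fewer counts per group. Without fasted PC replicate 1 the PC values were -0.054 ± 0.46 for Gulo, 0.0028 ± 0.25 for Slc13a3, -0.42 ± 0.51 for Lect2 and -0.42 ± 0.25 for Rgn, none of them called.

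**Figure D2:**
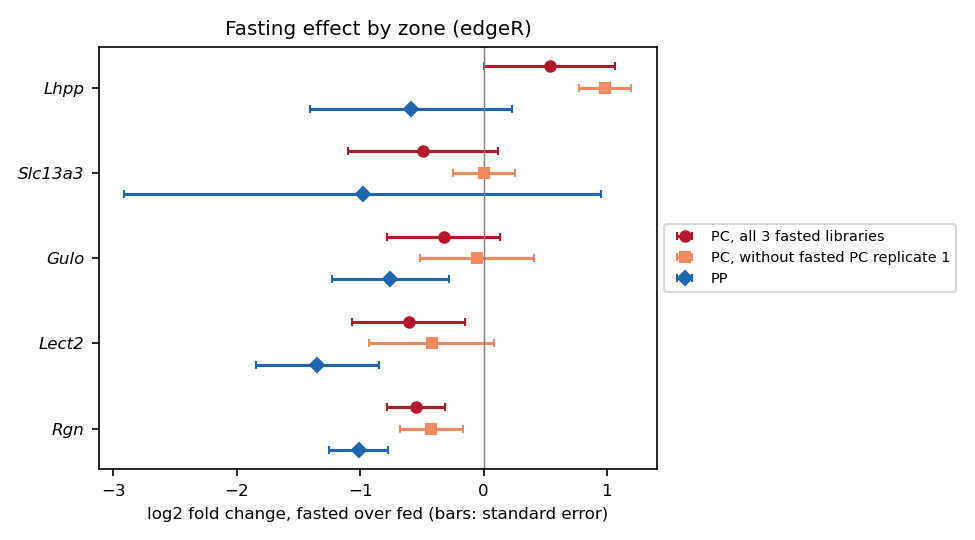
Log2 fold change of fasted over fed for each gene, with standard errors, in PC (circles), in PC without fasted PC replicate 1 (squares) and in PP (diamonds). Lhpp moves to 0.99 and Slc13a3 to 0.0028 in PC when that library is left out, while Rgn lies at -1.01 in PP.

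Counted over the set, 0 of the 5 genes were called in PC, where 21.4% of all genes were, and 1 of 5 in PP. The median log2 fold change of the 5 genes was -0.49 in PC and -0.98 in PP, against 0.0042 and 0.0049 over all genes. Fitted values were below 0 for 4 of the 5 genes in PC and for all 5 in PP, with only Rgn in PP called. Both medians are the values of Slc13a3, so their size rests on that gene and is not a measure of a fall of the set. Its PP value rests on 6 counts in fasted and 12 in fed libraries. Its PC value was 0.0028 without fasted PC replicate 1. Averaged over both zones, 2 of 5 were called lower, where 35.3% of all genes were called and 17.5% were lower. For the difference between the zones in the fasting effect, edgeR called 0 of 12086 genes (0%), with 465 at an unadjusted p under 0.05, and DESeq2 called 11. None of the 5 genes was among them in either tool, and since this difference is built from the zone contrasts behind the choice, nothing more is read from it. Of 13 pericentral markers, Cyp1a2 and Rnf43 were called lower and 0 higher in fasted PP, where 9.5% of all genes were lower and 8.39% higher. The median log2 fold change of the 13 markers was -0.79. The summed pericentral markers were lowest in fasted PP replicate 3, at 236 CPM, and were at 890 and 979 CPM in the other fasted PP libraries. Much of that sum is Cyp2e1, at 120 CPM there and 724 and 754 CPM in the others. All 5 genes had their lowest value of the 6 PP libraries there, as did 7 of the 13 markers and 17.6% of all tested genes. Not all markers fell: Cyp1a2, Lgr5 and Znrf3 stood at 124%, 125% and 129% of the mean of the other fasted PP libraries. Without fasted PP replicate 3, Rgn in PP had -0.88 ± 0.27 (edgeR adjusted p = 0.0479), Lect2 -0.89 ± 0.32 (edgeR adjusted p = 0.0886) and Gulo -0.32 ± 0.31 (edgeR adjusted p = 0.527). The part of the pericentral marker level in the fall of Rgn was not tested.

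In fasted PC replicate 1, Slc13a3 stood at 10.6% of the mean of replicates 2 and 3, Lhpp at 16.8%, Gulo at 46.0%, Lect2 at 60.5% and Rgn at 72.2%. Among these 5 genes that is also the order of the PC to PP ratios in fed mice. It did not extend to other pericentral genes: Glul, Cyp1a2 and Cyp2e1 had fed ratios of 13.1, 13.2 and 13.5 and stood at 5.74%, 34.9% and 78.3%. All 5 genes were lowest there among the 6 PC libraries, as were 10 of 13 pericentral markers and 21.2% of all tested genes. Slc1a2, a glutamate transporter, was the lowest of these markers, at 2.21% of the other libraries. Periportal genes went the other way: 10 of 12 periportal markers were highest there among the PC libraries, with Hal, histidine ammonia-lyase, at 649% and Cyp2f2 at 339% of the other libraries. What set this library apart was not tested. After removing group means from log2(CPM + 1), Gulo and Lect2 had a Pearson correlation of 0.946 over the 12 libraries and 0.953 over 11, without fasted PC replicate 1. Both genes were also low in fasted PP replicate 3, at 24% (Gulo) and 20.7% (Lect2) of the mean of the other fasted PP libraries. A correlation without that PP library is not given, so how far the pair rests on it is not known. Slc13a3 and Lhpp had 0.926 over the 12 libraries, which rests on fasted PC replicate 1, since it was 0.012 without it. With Glul the correlation was 0.958 for Slc13a3 and 0.874 for Lhpp, against 0.717 and 0.036 without fasted PC replicate 1. Gulo with Glul had 0.664 (0.637 without it), Lect2 0.525 (0.607) and Rgn 0.392 (0.077). Each point is a library, so its depth and cell makeup are shared by the genes compared, and all 5 genes were lowest of their zone in fasted PC replicate 1 and in fasted PP replicate 3.

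**Figure D3:**
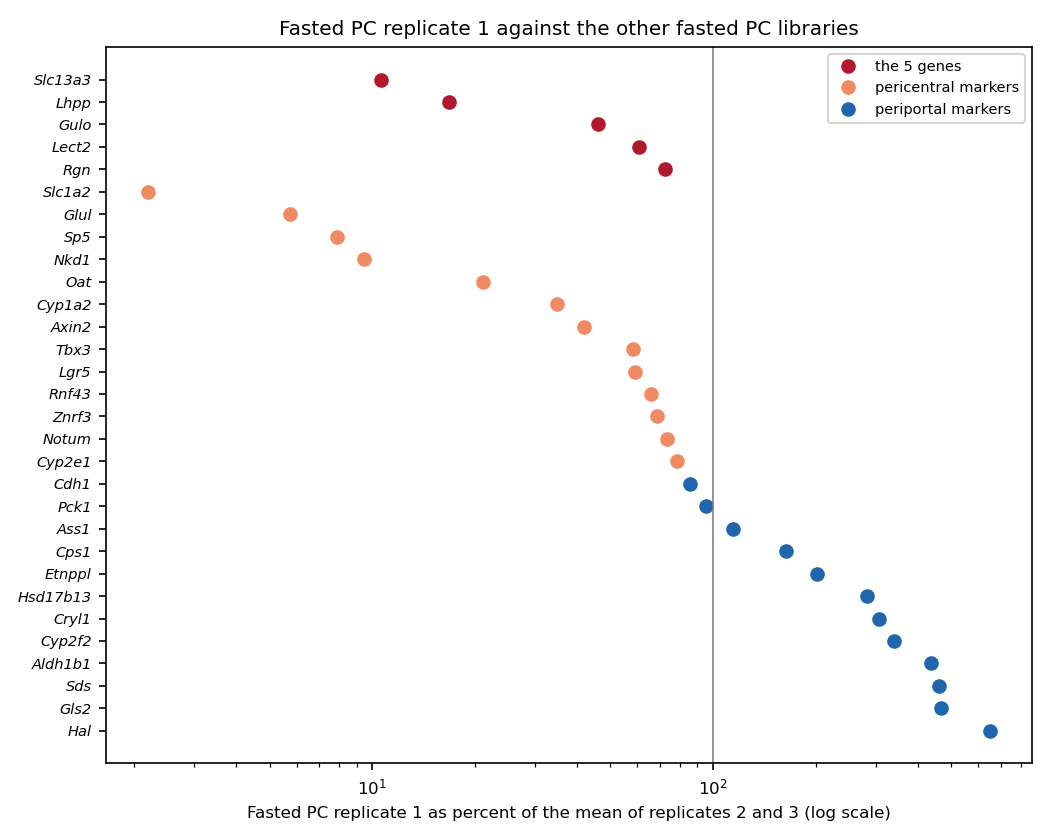
Level in fasted PC replicate 1 as a percent of the mean of fasted PC replicates 2 and 3, on a log axis, for the 5 genes, 13 pericentral markers and 12 periportal markers. The 5 genes run from 10.6% for Slc13a3 to 72.2% for Rgn, all pericentral markers lie below 100%, and 10 of 12 periportal markers lie above it.

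Which genes behaved most like each of the 5 was asked over all 12 libraries, as the root mean square difference of log2(CPM + 1) after centring each gene, among 8134 genes that averaged 5 CPM or more. The measure includes the PC to PP difference by which the 5 genes were chosen, so it is not separate from that choice. Lhpp was closest to Oat, ornithine aminotransferase (0.451 log2 units), then Rdh9 (0.592) and Gulo (0.670). Slc13a3 was closest to Glul (0.532), Rdh9 (0.610) and Tnfrsf19 (0.683), on a scale where the added 1 CPM makes PP values of Slc13a3 nearly flat. Gulo was closest to Nxpe2 (0.402), Cyp2e1 (0.511) and Cyp2a5 (0.541), the last of which has close paralogs. The best match of the whole set was Lect2 with Cldn2, the tight junction protein claudin-2, at 0.231 log2 units. Cldn2 stood at 68.9, 104 and 100.4 CPM in fasted PC, against 143, 130.3 and 116 CPM in fed PC. In PP, Cldn2 stood at 7.67, 10.2 and 2.10 CPM in fasted libraries, against 19.1, 11.3 and 10.7 CPM in fed libraries. Tbx3 (0.383), a transcription factor of the pericentral zone, and Nxpe2 (0.388) came next for Lect2. Rgn was closest to Akr1c6 (0.340) and Atp6v0d2 (0.378). Of the other 4 genes, Lect2 was nearest to Rgn, at rank 105 (0.837). Without fasted PC replicate 1 the closest gene was still Oat for Lhpp, Nxpe2 for Gulo, Cldn2 for Lect2 and Akr1c6 for Rgn. For Slc13a3 it was then Rdh9 (0.366), with Glul second (0.478).

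**Figure D4:**
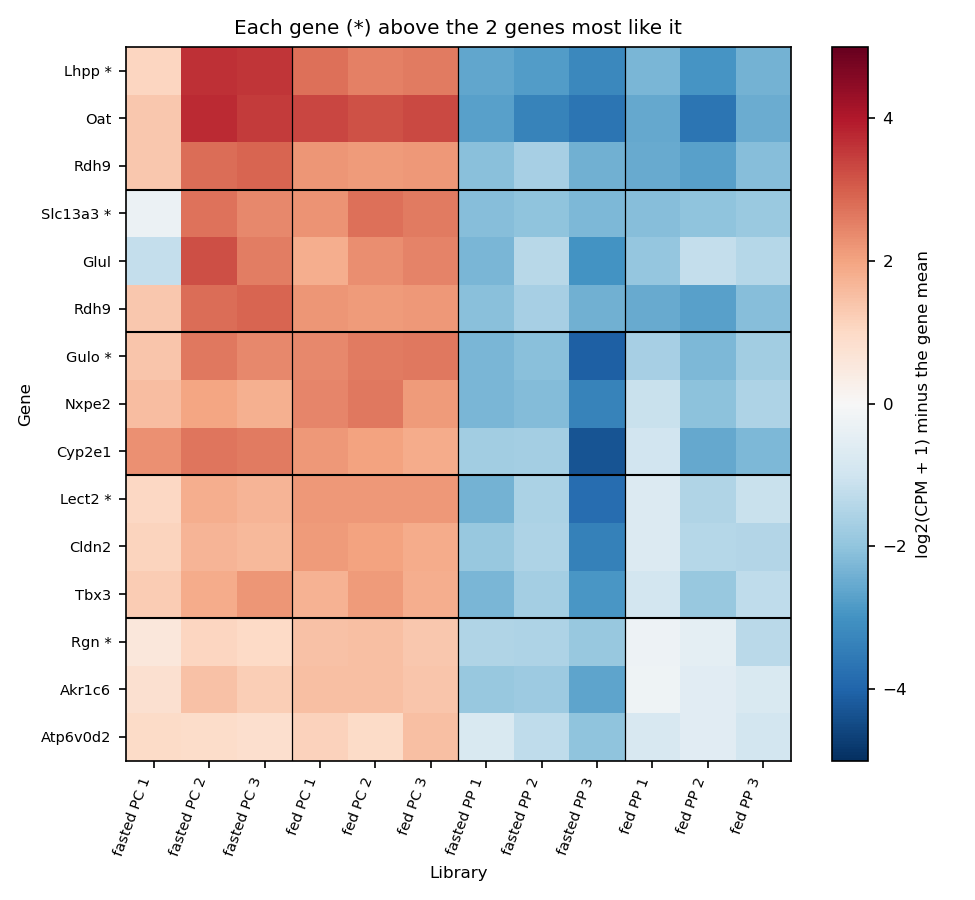
Log2(CPM + 1) minus the gene's mean, for each of the 5 genes (marked *) above the 2 genes most like it, in the 12 libraries. Red marks levels above and blue below the gene's mean; the PC columns are red and the PP columns blue except in fasted PC replicate 1, where Slc13a3 and Glul are pale blue and Lhpp and Oat pale red, and fasted PP replicate 3 is darkest in the Gulo and Lect2 blocks.

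Of 8 genes of ascorbate synthesis, 3 were called higher and 2 lower in fasted PC, and 2 higher and 1 lower in fed PC. The shares over all genes were 3.35% and 3.05% in fasted mice, and 2.24% and 2.47% in fed mice. Gulo and Rgn, chosen for their zone values, were the 2 higher genes in fed mice and, with Akr1a1, the 3 in fasted mice. The counts of higher genes are therefore not read against those shares. Ugp2, which makes UDP-glucose, stood at 343 CPM in fasted PC and 452 CPM in fasted PP, with a zone difference of -0.40 (edgeR adjusted p = 0.219). Ugdh, which oxidises it to UDP-glucuronate, had 0.96 in fasted mice (edgeR adjusted p = 0.0893) and -0.029 in fed mice (edgeR adjusted p = 0.981). Akr1a1, the reductase that makes gulonate from glucuronate, was higher in fasted PC by 0.61 ± 0.15 (edgeR adjusted p = 0.027), and leaving out any 1 of 5 fasted libraries ended the call. Gusb, beta-glucuronidase, was lower in PC, at -0.86 ± 0.16 in fasted mice (edgeR adjusted p = 0.00701) and -0.64 ± 0.16 in fed mice (0.0384), where 8 of 12 fits without 1 library ended the call. Pgm2, a phosphoglucomutase, was lower in fasted PC (-0.77, edgeR adjusted p = 0.0467), which 10 of those 12 fits ended. With fasting, 1 of the 8 rose in PC, where 11.1% of all genes did. That gene was Pgm1 (0.31 ± 0.085, edgeR adjusted p = 0.0202), and its call needed each of replicates 2 and 3 of fed PC and of fasted PC. In PP, 1 of the 8 fell, where 9.5% of all genes did, and it was Rgn, already counted above.

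Of 9 tested genes that carry or recycle ascorbate, 5 were called higher and 0 lower in fasted than in fed PC, where the shares over all genes were 11.1% and 10.2%. In PP, 4 of the 9 were called higher and 0 lower in fasted mice, where 8.39% of all genes were higher and 9.5% lower. Slc23a2, a sodium-coupled vitamin C transporter, averaged 51.7 CPM in fasted PC and 22.7 CPM in fed PC (1.19 ± 0.26, edgeR adjusted p = 0.00769). In PP it averaged 40.6 CPM in fasted and 14.6 CPM in fed libraries (1.48 ± 0.27, edgeR adjusted p = 0.00317). Slc2a1, the glucose transporter GLUT1, which also takes up dehydroascorbate, rose by 1.35 ± 0.25 in PC (edgeR adjusted p = 0.00248) and 1.24 ± 0.24 in PP (0.00466). These 4 calls held in each of the 12 fits without 1 library. Slc23a1, the transporter that predominates in liver and kidney, had -0.61 in PC and -0.76 in PP and was not called (edgeR adjusted p = 0.27 and 0.18). Gsto1, an omega-class glutathione transferase with dehydroascorbate reductase activity, was lower in PC than in PP, by -0.52 ± 0.12 in fasted mice (edgeR adjusted p = 0.0249) and -0.59 ± 0.12 in fed mice (0.0146). The fasted call ended in 3 and the fed call in 4 of the 12 fits. Slc2a2, the glucose transporter GLUT2, was at the edge in fasted PC (-0.496, edgeR adjusted p = 0.0499), and 10 of the 12 fits ended its call.

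Within the Slc13 family, Slc13a3 and its paralog Slc13a2, NaDC1, lay in opposite zones. Slc13a2 stood at 1.65, 0.782 and 0.665 CPM in fasted PC, against 3.26, 5.36 and 3.10 CPM in fasted PP. In fed mice Slc13a2 stood at 0.533, 0.835 and 1.13 CPM in PC, against 2.39, 2.44 and 7.38 CPM in PP. It was lower in PC by -1.91 ± 0.51 in fasted mice (edgeR adjusted p = 0.0462) and -2.30 ± 0.51 in fed mice (0.0219). The fasted call ended in 8 and the fed call in 4 of the 12 fits without 1 library. Slc13a4 and Slc13a5 averaged under 1 CPM in every group and were not called, and Slc13a1 was too low to test. Of 16 tested genes that handle dicarboxylates or N-acetylaspartate, 2 were called higher and 3 lower in fasted PC, and 1 higher and 1 lower in fed PC. The shares over all genes were 3.35% and 3.05% in fasted mice, and 2.24% and 2.47% in fed mice. The median log2 difference of the 16 genes was -0.039 in fasted and 0.0051 in fed mice. Slc25a21, the mitochondrial oxodicarboxylate carrier, was higher in PC by 1.70 ± 0.27 in fasted and 1.74 ± 0.27 in fed mice (edgeR adjusted p = 0.00239 and 0.00227). Slc22a7, an organic anion transporter, was lower in PC by -2.25 ± 0.36 and -2.07 ± 0.34 (edgeR adjusted p = 0.00353 in fasted and 0.00436 in fed mice). Idh1, cytosolic isocitrate dehydrogenase, was higher in fasted PC by 0.48 ± 0.13 and Fh1, fumarase, lower by -0.47 ± 0.12 (edgeR adjusted p = 0.0425 and 0.0324), calls that 8 and 6 of the 12 fits ended. With fasting, Sucnr1, the succinate receptor, fell by 1.08 on the log2 scale in PC and fell by 1.36 in PP (edgeR adjusted p = 0.00598 and 0.0023). Acly, which makes acetyl-CoA from citrate, fell by 4.62 in PC and fell by 3.50 in PP (edgeR adjusted p = 0.000411 and 0.00166). Fh1 rose in PP by 0.48 ± 0.12 and Slc25a10, the mitochondrial dicarboxylate carrier, by 0.42 ± 0.12 (edgeR adjusted p = 0.0145 and 0.0284). Slc25a10 lost its call without fasted PP replicate 2 or without the second or the third fed PP library.

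Of 13 tested phosphatases and phosphohistidine enzymes, 2 were called higher in fasted PC and 1 in fed PC, with 0 lower in either state. Over all genes 3.35% were higher and 3.05% lower in fasted mice, and 2.24% and 2.47% in fed mice. Lhpp, chosen for its zone values, is counted among the higher genes in both states. For that reason the counts of higher genes are not read against those shares. The second gene in fasted PC was Hdhd3, also of the haloacid dehalogenase family, higher in fasted PC by 0.99 ± 0.18 (edgeR adjusted p = 0.00539). Phpt1, another phosphohistidine phosphatase, had zone differences of 0.20 in fasted and 0.036 in fed mice (edgeR adjusted p = 0.57 and 0.95). The zone differences in fasted mice of the remaining genes of this class, Pgp, Hdhd2, Hdhd5, Nanp, Psph, Ppa1, Ppa2, Pgam5, Nme1 and Nme2, lay between -0.27 and 0.15, with none called. With fasting, Hdhd3, Pgp and Pgam5 fell in both zones, 3 of 13, and 0 rose, where 10.2% of all genes fell in PC and 9.5% in PP. Hdhd3 fell by 1.78 on the log2 scale in PC (edgeR adjusted p = 5.9e-05) and fell by 2.27 in PP (1.5e-05), with means of 10.9 CPM in fasted PC and 37.3 CPM in fed PC. Pgp, phosphoglycolate phosphatase, fell by 0.37 in PC and fell by 0.51 in PP (edgeR adjusted p = 0.0374 and 0.00936), the PC call ending in 5 of the 12 fits without 1 library. Pgam5, a mitochondrial protein phosphatase, fell by 0.50 in PC and fell by 0.42 in PP (edgeR adjusted p = 0.00932 and 0.0247), the PC call ending without fed PC replicate 3 and the PP call without any 1 of the 6 PP libraries.

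Lect2 was also set beside other proteins that hepatocytes secrete. Of 20 such genes, 2 were called higher and 3 lower in fasted PC, and 1 was called higher and 0 lower in fed PC. Over all genes 3.35% were higher and 3.05% lower in fasted mice, and 2.24% and 2.47% in fed mice. The gene called in fed PC was Lect2, which was chosen for its zone values and is also 1 of the 2 higher in fasted PC. Counts of higher genes are thus not read against those shares here either. Serpina6, corticosteroid-binding globulin, was the other gene higher in fasted PC, at 459 CPM in fasted PC and 121 CPM in fasted PP (1.92 ± 0.32, edgeR adjusted p = 0.00467). With fasting Serpina6 fell by 1.29 on the log2 scale in PP (edgeR adjusted p = 0.0169), which was lost when the second fed PP library, or fasted PP replicate 1 or 3, was left out. Of the 3 genes lower in fasted PC, Angptl8 had -0.75 and Orm1 -0.69 (edgeR adjusted p = 0.0422 and 0.042), calls that 10 and 9 of the 12 fits ended. With fasting, Angptl8, an inhibitor of lipoprotein lipase, had -4.63 ± 0.22 in PC and -3.96 ± 0.21 in PP, and Igfbp1, which binds insulin-like growth factors, had 3.21 ± 0.57 and 3.58 ± 0.58 (edgeR adjusted p at most 0.00405 in each). Angptl4, which also inhibits lipoprotein lipase, had 2.99 ± 0.32 in PC and 3.22 ± 0.32 in PP (edgeR adjusted p = 0.000186 and 0.000177). Met, a receptor tyrosine kinase reported to bind LECT2, rose by 0.36 ± 0.11 in fasted PC (edgeR adjusted p = 0.0403), which 11 of 12 fits without 1 library ended. Tek and Tie1, endothelial receptors, averaged under 1 CPM in every group.

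The 5 genes lie on 5 chromosomes, and their neighbours within 200 kb were examined. Of 27 tested neighbours, 5 were called between the zones in fasted mice, where 6.4% of all genes were, and 4 in fed mice, where 4.72% were. The closest match in zoning was at Lhpp. Oat lies 34.2 kb from Lhpp and was higher in PC by 6.42 ± 0.66 in fasted and 6.13 ± 0.65 in fed mice (edgeR adjusted p = 0.000741 and 0.000744). Oat was the gene most like Lhpp across libraries, by a measure that includes this same zone difference. Fgfr2, a fibroblast growth factor receptor whose annotated span on the opposite strand covers Lhpp without sharing an exonic base with it, went the other way. That span runs from 130162451 to 133123350, far beyond Lhpp, and Fgfr2 counts as a neighbour at 0 kb only through it. Where in the span its reads fall was not examined. Fgfr2 stood at 6.70, 1.62 and 1.83 CPM in fasted PC, against 47.9, 60.6 and 95.6 CPM in fasted PP (-4.31 ± 0.53, edgeR adjusted p = 0.00135). In fed mice Fgfr2 had -4.85 ± 0.56 (edgeR adjusted p = 0.00102). Next to Lect2, Fbxl21 lies 4.57 kb away and was higher in PC by 1.70 in fasted and 2.12 in fed mice (edgeR adjusted p = 0.0166 and 0.00407), at means of 3.76 CPM in fasted PC and 7.18 CPM in fed PC. In fasted mice Fbxl21 lost its call when fasted PC replicate 2, or fasted PP replicate 3, was left out. Near Gulo, Ptk2b was higher in PC by 0.81 and 0.66 (edgeR adjusted p = 0.00395 in fasted and 0.0148 in fed mice), the fed call ending when replicate 1 or 2 of fed PC, or the second of fed PP, was left out. Scara3, near Gulo as well, was lower in fasted PC by -4.56 (edgeR adjusted p = 0.00501) at 1.44 CPM in fasted PP. No tested neighbour of Slc13a3 or Rgn was called between the zones.

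**Figure D5:**
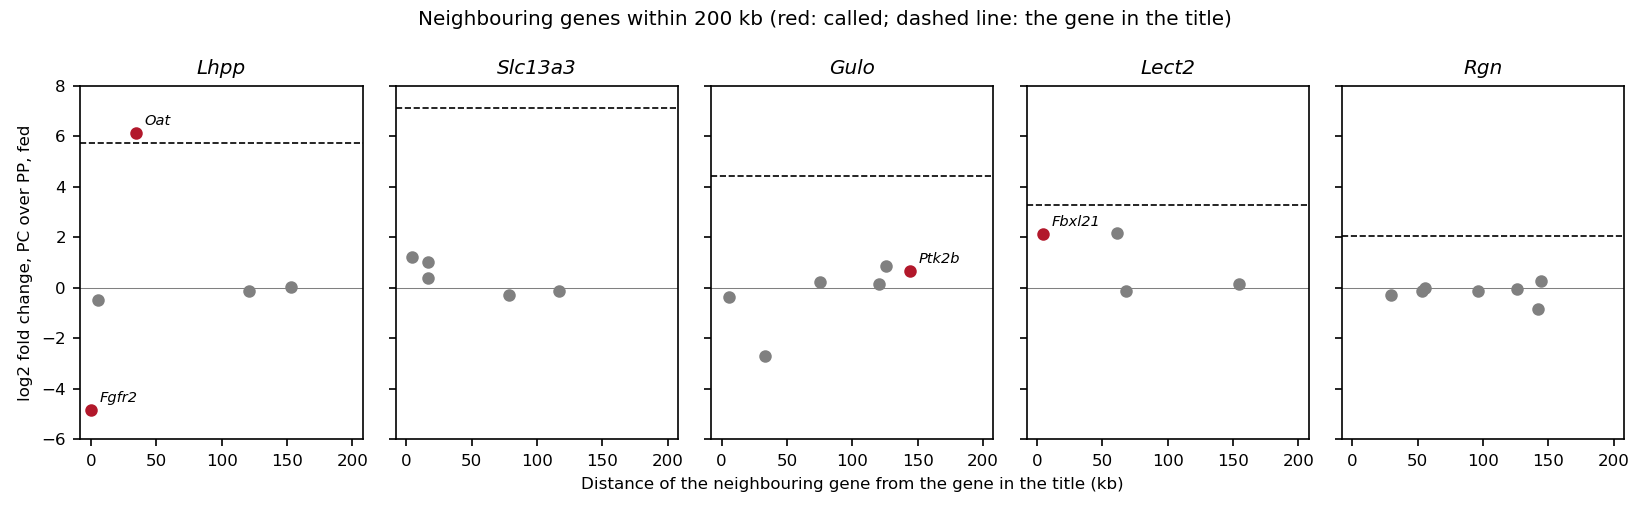
Log2 fold change of PC over PP in fed mice for the tested genes within 200 kb of each of the 5 genes, against the distance in kb between the genes; red points were called by edgeR and the dashed line is the value of the gene in the panel title. In the Lhpp panel Oat lies at 6.13 and Fgfr2, placed at 0 kb by its long annotated span, at -4.85. The remaining points lie between -2.70 and 2.19.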

How the data were processed

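RNA of 12 hepatocyte libraries was sequenced from NEBNext Ultra kits, per the labels' protocols, a kit that does not mark strand. The authors deposited 1 table of estimated counts per Ensembl gene. Per the submitters' processing notes, kallisto 0.46.0 and the build mm10 were used; the sources used here give neither the annotation nor how transcripts were summed, reads trimmed or strand set. Counts were rounded to whole numbers, which moved a library's total by at most 121 counts. Of 28030 identifiers, 27566 were found in GENCODE M21 (GRCm38), which gave symbols, coordinates and exon lengths. Libraries of a group differed by more than sampling noise, at a chi-square per degree of freedom of 23.9 to 79.8.

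Genes passing filterByExpr (12086) were scaled by TMM. The robust quasi-likelihood fit of edgeR 4.0.16 (R 4.3.3) took 4 group means with 8 residual degrees of freedom. A call is a p under 0.05 after Benjamini-Hochberg adjustment over all 12086 genes. SE is the log2 fold change over the square root of the test statistic. P-values reflect only how much these libraries vary, which may be technical in part. Alternatives were DESeq2 1.42.0, its size factors in edgeR, no filter, a replicate block, only the groups compared, and leaving out each library. Levels, ratios, correlations and likeness without fasted PC replicate 1 were added after the data were seen.

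The 5 genes and all lists were chosen with earlier results of these data known. Named genes were the 5, the 3 most like each (1 of them is not reported here), the genes of the ascorbate synthesis, Slc13 and phosphatase lists, up to 2 called genes per direction of the other lists (marker lists are given as sums and counts) and Glul, Alb and Oat. Slc23a1, Tek, Tie1 and called neighbours within 200 kb were added after their values were seen.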

Additional observations from a re-analysis of the deposited data

How the results depend on the processing

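Of the alternatives, the fall of Rgn in fasted PP and its fall averaged over both zones kept their direction and their call in every fit run. Of the 5 genes, those called over both zones numbered 2 as reported, 1 with no filter on low counts, 1 with the replicate block and 1 to 2 without 1 library, Lect2 being the gene lost. In PC the count was 0, 2 in the fit of the 6 PC libraries and 0 to 1 without 1 library. In PP it was 1, and 1 to 2 without 1 library.

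Leaving out 1 library turned the direction of values near 0: Lhpp over both zones ran from -0.20 to 0.20, Slc13a3 in PC from -0.999 to 0.0028, the zone difference in fasting of Slc13a3 from -0.11 to 1.34 and that of Gulo from -0.019 to 0.77. The cause was not tested.

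Over all genes, DESeq2 called 909 between the zones of fed mice, where edgeR called 570, and 11 for the zone difference in fasting, where edgeR called 0 and edgeR with no filter called 1. The fit of 6 libraries called 376 genes between the zones of fasted mice, against 774 in the fit of 12. Without 1 library the counts ran from 1593 to 2618 for fasting in PC (2582 with all libraries), 1405 to 2414 for fasting in PP (2162), 3549 to 4216 over both zones (4264), 0 to 2 for the zone difference, 292 to 701 for the zones of fed mice and 386 to 1005 for those of fasted mice. With DESeq2 size factors in edgeR no call or direction of the 5 genes changed.

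Whether the replicate numbers of the labels pair the libraries was not settled. Correlations of same-numbered deviations ran from -0.151 to 0.394, and not every library was most like its own number. Between PC and PP of one feeding state, replicates 1 and 3 were most like their own number (0.394 and 0.258 in fed, 0.258 and 0.149 in fasted mice). Replicate 2 was not, at -0.022 in fed and -0.151 in fasted mice. The block changed the call of Lect2 over both zones (-1.03, edgeR adjusted p = 0.0648) and no other call of the 5 genes. Depth limits Slc13a3 and Lhpp in PP, which rest on 0 to 6 and 15 to 53 counts per library.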
